A study of Canis lupus familiaris with 6 samples.

Results

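The TRIM (tripartite motif) family was examined in transformed MDCK cells, a dog kidney epithelial line (Madin-Darby canine kidney), with inducible GFP-tagged RasV12. A probe of the array was taken as a member if its gene name began with TRIM and a digit, which gave 60 of 43603 probes and 39 of 34378 gene names. Each gene was then read from the brightest of these probes, and its other probes served as a check. Both groups held MDCK-pTR GFP-RasV12 cells, in which tetracycline induces GFP-RasV12, and both received tetracycline for 24 h on collagen before GFP-positive cells were sorted. In the alone group (3 arrays) the RasV12 cells were the only cells in the dish, whereas in the mixed group (3 arrays) they grew among normal MDCK cells. The comparison therefore asks how transformed cells cultured among normal cells differ from those cultured alone, here for the TRIM genes. It does not separate contact from other differences between the dishes.

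The study's methods and most labels give 10 normal cells to 1 RasV12 cell for mixed culture, but the label of mixed replicate 2 gives 100 to 1. In the labels, the RNA extraction protocol refers to cells that also carry mCherry-β-catenin Δ131, while the sample titles and the series design give cells without it, and the latter are followed here. Neither source says whether the replicates were separate cultures, so p-values measure the spread between these samples, which may be technical. Each group filled a slide of its own, so the slide cannot be told apart from the culture condition. On each array 60.8% to 66.4% of the probes exceeded the background clearly, by the scanner software's own call, here written as well above background. The number of arrays limits the precision. All 6 kidney epithelial marker genes on the array were well above background on every array, with a summed intensity of 287396 to 341781 alone and 307282 to 343808 in mixed culture. PTPRC, PDGFRA and CDH5, which define leukocytes, fibroblasts and endothelium, were not above background on any array. The gate could also have held normal MDCK cells. The summed intensity of 8 Ras-MAPK output genes was 69971 to 72056 alone and 58410 to 66746 in mixed culture, and DUSP6 made up most of this sum. By gene the list was not uniform, with 3 differences above 0 and 5 below. FOSL1 was the called gene among them (12.5%, against 11.2% of all tested probes), lower by 0.52 on the log2 scale (SE 0.082, adjusted p = 0.0193, limma). The part of this lower sum in the results that follow was not tested.

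TRIM proteins share an amino-terminal RING finger, B-box and coiled coil, and differ in the domain that follows. The RING finger takes ubiquitin from an E2 enzyme and passes it to a target, so most members are E3 ubiquitin ligases. Many act in innate immunity: TRIM25 and TRIM4 attach ubiquitin to the RNA sensor RIG-I, TRIM21 binds antibody-coated virus in the cytosol, and interferon raises the transcription of several members in many cell types. Others repress chromatin (TRIM28, TRIM33), bind microtubules through a COS box (TRIM36, TRIM46, TRIM63), or carry NHL repeats that contact RNA or protein (TRIM2, TRIM3).

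Values rest on single 60-base probes, so the sequences behind the opposite calls of TRIM21 and TRIM25, the uncalled but large difference of TRIM45, and the TRIM63 probe that differed least, are shown first, in lower case throughout. The coordinates are those of the array annotation on canFam3, which gives no exon.
TRIM21 (chr21:26776258-26776317, minus strand): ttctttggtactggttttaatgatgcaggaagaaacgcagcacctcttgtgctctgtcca
TRIM25 (chr9:31707080-31707139, minus strand): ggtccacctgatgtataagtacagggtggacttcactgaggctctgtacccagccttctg
TRIM45 (chr17:54501890-54501949, minus strand): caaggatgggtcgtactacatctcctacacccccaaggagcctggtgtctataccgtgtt
TRIM63, probe that differed least (chr2:73905694-73905753, plus strand): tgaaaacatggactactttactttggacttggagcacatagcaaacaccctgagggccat
The longest run that the TRIM21 and TRIM25 probes each share with a probe of another TRIM gene is 9 bases, and for TRIM45 and the brightest TRIM63 probe it is 8 bases.

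Of the 39 genes, 27 were tested, since each array of 1 group or of both had them well above background, and 25 of these were so on all 6 arrays. TRIM10 and TRIM35 were well above background on the 3 alone arrays but only on 2 and 1 of the mixed arrays. TRIM23 and TRIM72, the latter known from membrane repair in muscle, were dim on part of both groups and were not tested. The remaining 10 genes were not well above background on any array. They include the interferon-linked TRIM22, TRIM34 and TRIM38, as well as TRIM6, and TRIM17, TRIM29, TRIM42, TRIM55, TRIM58 and TRIM71. TRIM6, TRIM34 and TRIM22 lie within 77848 bases of each other on canFam3 chromosome 21, so the whole measured part of this cluster was at background, and at this signal no difference was detectable.

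TRIM21 and TRIM63 rose by 0.91 and 0.78 on the log2 scale in mixed culture, TRIM46 rose by 0.35, and TRIM25 fell by 0.33. These 4 of the 27 tested genes (14.8%) passed an adjusted p of 0.05 in limma's moderated test, two-sided with Benjamini-Hochberg adjustment over all 26534 tested probes, where 11.2% of probes passed. By direction, 3 TRIM genes were higher against 5.50% of all probes, and 1 was lower against 5.72%. The groups did not overlap for 10 genes (37.0%), 8 higher and 2 lower, against 37.2% of all tested probes. Both shares lie near the background, so the counts say nothing particular about the family. TRIM35, 1 of the 2 lower genes without overlap, was tested through the alone arrays and was well above background on only 1 mixed array. Over all probes, 1459 of the 2978 calls were higher in mixed culture, and scaling to spike-in controls gave 283 of 950. The median difference of the 27 genes was 0.12, with 17 values above 0 and 10 below, against -0.0037 over all probes, but it was -0.040 when the arrays were scaled to spike-in controls, which moved the median of all probes by -0.16.

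**Figure D1:**
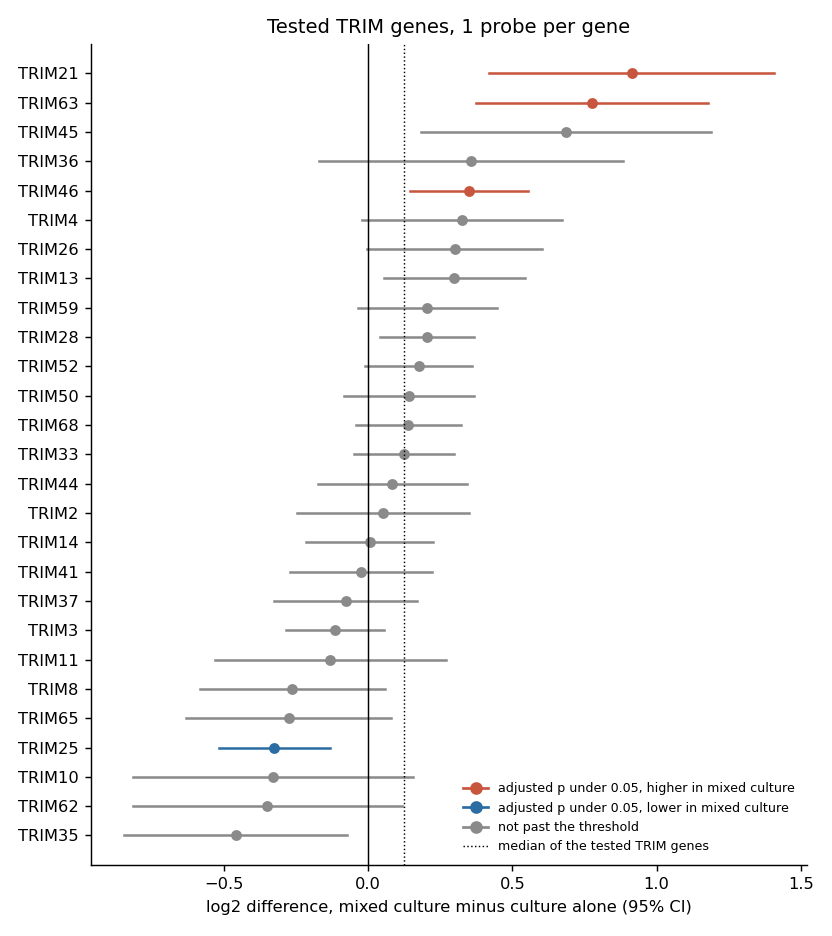
Log2 difference (mixed culture minus culture alone) with its 95% confidence interval for the 27 tested TRIM genes, 1 probe per gene; red and blue mark the 4 genes past the threshold. The differences run from -0.46 for TRIM35, well above background on only 1 mixed array, to 0.91 for TRIM21, and the dotted line is the median of 0.12.

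TRIM21, the cytosolic antibody receptor, had scaled intensities of 874, 535 and 525 in alone replicates 1 to 3 and 1289, 1071 and 1188 in mixed replicates 1 to 3. Scaled intensity here is the scanner's processed signal after the arrays were brought to a common 75th percentile of 639. Every mixed value lay above every alone value, and alone replicate 1 stood between the groups. The difference was 0.91 on the log2 scale (SE 0.21, 95% CI 0.42 to 1.41, adjusted p = 0.0403, limma), or 1.88-fold. Without alone replicate 1 it was 1.15 (adjusted p = 0.00321), while leaving out any other single array ended the call (0.79 to 0.98, adjusted p = 0.0972 to 0.135). In bulk RNA of sorted cells, a change in the share of cells with a transcript and a change in RNA per cell cannot be told apart.

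TRIM25, which ubiquitinates RIG-I and also attaches ISG15 to proteins, went the other way. Its scaled intensity was 176, 188 and 186 in the alone arrays and 157, 137 and 144 in the mixed arrays. The groups did not overlap, with mixed replicate 1 the nearest to the alone values. The difference was -0.33 (SE 0.080, 95% CI -0.52 to -0.13, adjusted p = 0.0493, limma), and with the replicate number as a block the adjusted p was 0.0768. It was -0.16 (adjusted p = 0.160) after normexp background correction and -0.49 (adjusted p = 0.0796) when scaled to spike-in controls. The call was lost without alone replicate 2, alone replicate 3, mixed replicate 2 or mixed replicate 3 (-0.32 to -0.28, adjusted p = 0.157 to 0.165).

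TRIM63, also called MuRF1, marks muscle proteins for degradation in atrophy and is best known from skeletal muscle and heart. Its brightest probe read 648, 418 and 444 in the alone arrays and 883, 814 and 839 in the mixed arrays. Again all mixed values were higher and alone replicate 1 lay nearest to them. The difference was 0.78 (SE 0.17, 95% CI 0.37 to 1.18, adjusted p = 0.0371, limma), or 1.71-fold. It was 0.97 without alone replicate 1 (adjusted p = 0.00298), and leaving out any other array ended the call (0.66 to 0.80, adjusted p = 0.0871 to 0.132). DES and MYOG, the muscle markers on the array, were not well above background on any array, with a summed intensity of 8.82 to 17.2 alone and 7.23 to 9.21 in mixed culture.

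The 3 TRIM63 probes did not read alike. The called probe (chr2:73909923-73909982) and a second one (chr2:73909932-73909991) share 51 bases and so are not independent. The second read 501, 305 and 326 in the alone arrays and 657, 615 and 581 in the mixed arrays, a difference of 0.75 (SE 0.19, adjusted p = 0.0533). The remaining probe, whose sequence is given above, read 82.9, 56.7 and 56.3 alone and 85.7, 62.6 and 80.9 in mixed culture, with overlapping groups and a difference of 0.24 (95% CI -0.22 to 0.69, adjusted p = 0.434). Averaged over the 3 probes the difference was 0.59 and the call was lost (adjusted p = 0.0884). Both overlapping probes hold the letters AATAAA, those of the polyadenylation signal, on the printed strand. These letters occur in 4 of the 60 TRIM probes and in 8.67% of all probes, and their reverse complement in 1 TRIM probe and 3.01% of all probes.

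TRIM46 organises microtubule bundles at the start of the axon in neurons. Its brighter probe (chr7:42345601-42345660) read 1028, 1052 and 893 alone and 1263, 1275 and 1238 in mixed culture, so that the mixed arrays were tightly grouped above the alone arrays. The difference was 0.35 (SE 0.085, 95% CI 0.14 to 0.55, adjusted p = 0.0482, limma), and 0.0563 was the adjusted p with the replicate number as a block. Scaled to spike-in controls it was 0.19 (adjusted p = 0.351). Without alone replicate 1 it was 0.38 (adjusted p = 0.0298), and leaving out any other array ended the call (0.28 to 0.39, adjusted p = 0.0954 to 0.149). The dimmer probe, whose position spans 1066 bases of the genome for 60 bases of probe, read 26.2 to 28.3 alone and 27.5 to 29.6 in mixed culture, a difference of 0.070 (95% CI -0.11 to 0.24, adjusted p = 0.558). Averaged over both probes the difference was 0.21 (adjusted p = 0.0980).

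**Figure D2:**
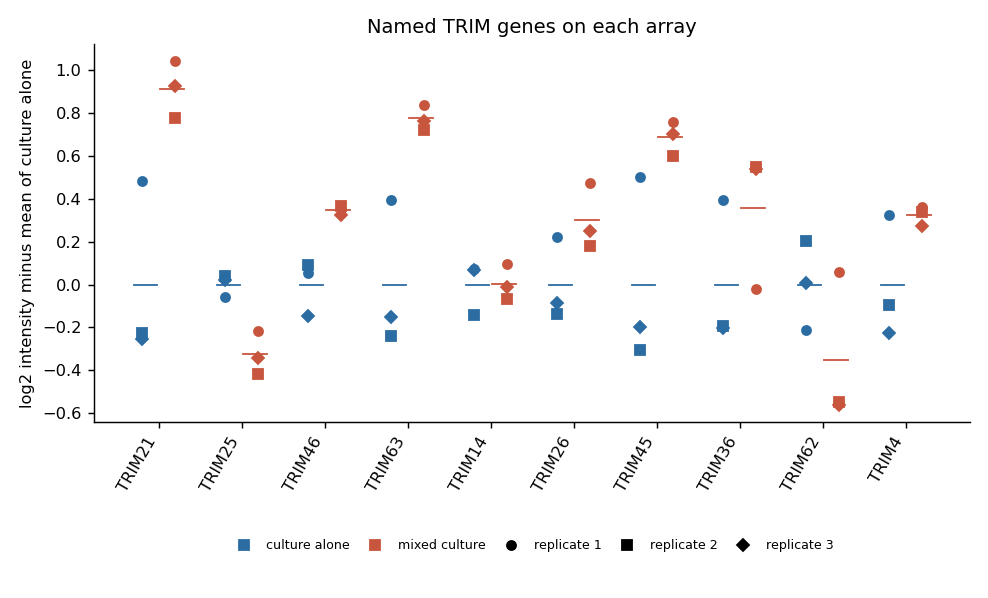
Log2 intensity on each array minus the mean of culture alone, for the 10 named TRIM genes (blue, culture alone; red, mixed culture; bars, group means; marker shapes, replicate numbers). Alone replicate 1 lies above the other alone arrays for TRIM21, TRIM63, TRIM45, TRIM36, TRIM26 and TRIM4, and the groups do not overlap for TRIM21, TRIM25, TRIM46, TRIM63 and TRIM45.

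Among uncalled genes, TRIM45 had the largest difference. This RING protein carries a filamin-type domain. It read 411, 235 and 253 in the alone arrays and 490, 439 and 473 in the mixed arrays, without overlap. The difference was 0.69 (SE 0.21, 95% CI 0.18 to 1.19, adjusted p = 0.0822, limma). A second TRIM45 probe (chr17:54498593-54498652) gave 0.65 (adjusted p = 0.0954), although there its highest alone value, 379, passed its lowest mixed value, 375. Without alone replicate 1 the brighter probe gave 0.94 (adjusted p = 0.00329).

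Alone replicate 1 was nearer to the mixed arrays than its group mates for several members. It exceeded the mean of alone replicates 2 and 3 by 0.72 on the log2 scale for TRIM21, 0.75 for TRIM45, 0.59 for TRIM63, 0.59 for TRIM36, 0.48 for TRIM4 and 0.33 for TRIM26. Mixed replicate 1 was likewise the highest mixed array for TRIM21, TRIM45, TRIM63, TRIM4 and TRIM26, but the lowest for TRIM36. With the replicate number as a block, the adjusted p in limma was 0.0575 for TRIM45 and 0.0582 for TRIM26. Alone replicate 1 was not simply brighter throughout, being above the mean of alone replicates 2 and 3 for 17 of the 27 genes, with a median of 0.075. When it was left out, 7 TRIM genes were called higher and 1 lower, while 28.2% of all tested probes were called. The 4 genes added were TRIM26, TRIM4, TRIM45 and TRIM59. With alone replicate 2 or 3 or mixed replicate 2 or 3 left out singly, by contrast, no TRIM gene was called in limma and 3 to 22 of all probes were, with 5 to 9 TRIM genes at an unadjusted p under 0.05. Mixed replicate 2, the array labelled 100 to 1, lay within 0.21 of the mean of the other mixed arrays for each of the 4 called genes. Without it the differences were 0.98 for TRIM21, 0.80 for TRIM63, 0.34 for TRIM46 and -0.28 for TRIM25, with adjusted p of 0.110, 0.113, 0.149 and 0.157.

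**Figure D3:**
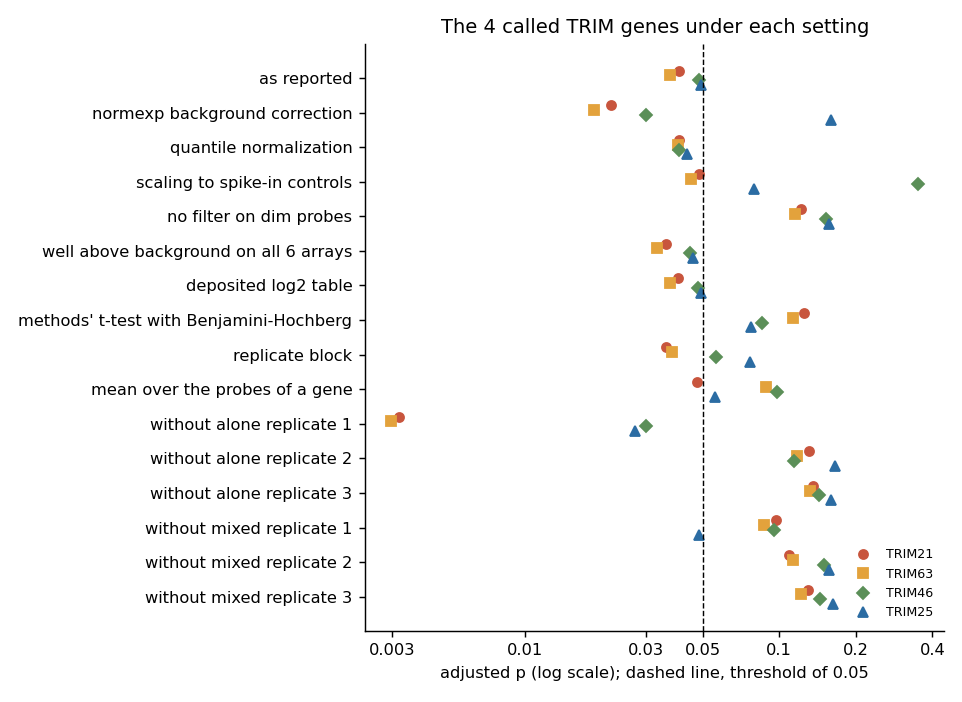
Adjusted p (log scale) of the 4 called TRIM genes as reported and under the 15 alternative settings, with the threshold of 0.05 dashed. TRIM21 was past the threshold in 8 alternatives, TRIM63 in 7, and TRIM46 and TRIM25 in 5 each.

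Of the interferon-linked TRIM genes, 7 were on the array and 4 could be tested: 1 rose (TRIM21), 1 fell (TRIM25) and 2 did not pass, where 5.50% of all tested probes rose and 5.72% fell. TRIM14, which has no RING finger and acts as an adaptor at mitochondria, read 164, 142 and 164 alone and 167, 149 and 155 in mixed culture. Its groups overlapped, and its difference was 0.0047 (95% CI -0.21 to 0.22, adjusted p = 0.979). TRIM26, a ligase encoded in the MHC region, read 270, 211 and 219 alone and 321, 263 and 275 in mixed culture, a difference of 0.30 (95% CI -0.0038 to 0.60, adjusted p = 0.163). Its highest alone value, alone replicate 1, passed the lowest mixed value. The median of the 4 was 0.15, against -0.0037 over all probes.

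A further 8 tested members are known from other parts of innate immunity. None of them passed the threshold in limma, where 11.2% of all tested probes did. Their differences ran from -0.46 to 0.32, with a median of -0.078, 3 above 0 and 5 below. TRIM4, a ligase of RIG-I, had the highest. It read 106, 79.2 and 72.4 alone and 109, 107 and 102 in mixed culture, where alone replicate 1 passed the lowest mixed value (0.32, 95% CI -0.022 to 0.67, adjusted p = 0.182). TRIM35 had the lowest, at 19.9, 17.2 and 16.6 alone and 13.0, 10.5 and 16.0 in mixed culture. These groups did not overlap, but 2 of the 3 mixed readings were not well above background, and the adjusted p was 0.112. TRIM13, an ER-anchored ligase, read 1344, 1134 and 1275 alone and 1386, 1601 and 1631 in mixed culture, again without overlap (0.30, adjusted p = 0.104). TRIM65, which ubiquitinates the RNA sensor MDA5, differed by -0.27 and TRIM8 by -0.26, both with overlapping groups.

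The COS box members had 2 called genes, TRIM46 and TRIM63, among 3 tested, both higher, where 5.50% of all tested probes were. Neither call held when the probes of a gene were averaged. TRIM36, the other one, read 80.9, 54.0 and 53.7 alone and 60.9, 90.2 and 89.5 in mixed culture. Replicate 1 was out of step in both groups, with the highest alone and the lowest mixed value, and the difference was 0.36 (95% CI -0.17 to 0.88, adjusted p = 0.315). Leaving out mixed replicate 1 gave 0.54 (adjusted p = 0.157) and leaving out alone replicate 1 gave 0.55 (adjusted p = 0.0793), each short of the threshold. The 2 further COS box genes on the array, TRIM42 and TRIM55, were at background.

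No other role had a called member, where 11.2% of all tested probes were called. TRIM28, the corepressor of KRAB zinc finger proteins, gave 10643, 10674 and 10589 alone and 12057, 12866 and 11888 in mixed culture at its brightest probe. These groups did not overlap, yet the difference was small (0.21, 95% CI 0.042 to 0.37, adjusted p = 0.0979), and its other 3 probes gave 0.063 to 0.12 with overlapping groups. TRIM33, its relative in SMAD signalling, differed by 0.12 and 0.11 at its 2 probes. The NHL genes TRIM2 and TRIM3 differed by 0.051 and -0.11, and TRIM44, which lacks a RING finger, by 0.084.

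TRIM62, a regulator of epithelial polarity, read 211, 282 and 246 alone and 255, 168 and 166 in mixed culture. Mixed replicate 1 lay among the alone values while the other two mixed arrays lay below them all. The difference was -0.35 (95% CI -0.82 to 0.12, adjusted p = 0.268), and without mixed replicate 1 it was -0.55 (adjusted p = 0.0697). TRIM37, a ligase of peroxisomes and centrosomes, had 4 probes, all below 0 but spread from -0.56 to -0.057. At the probe with the lowest value alone replicate 1 stood apart, at 193 against 307 and 326, with 157, 193 and 199 in mixed culture (adjusted p = 0.131). TRIM59, TRIM52, TRIM50, TRIM10, TRIM11, TRIM41 and TRIM68 complete the tested genes, with differences between -0.33 and 0.21, none past the threshold.

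**Figure D4:**
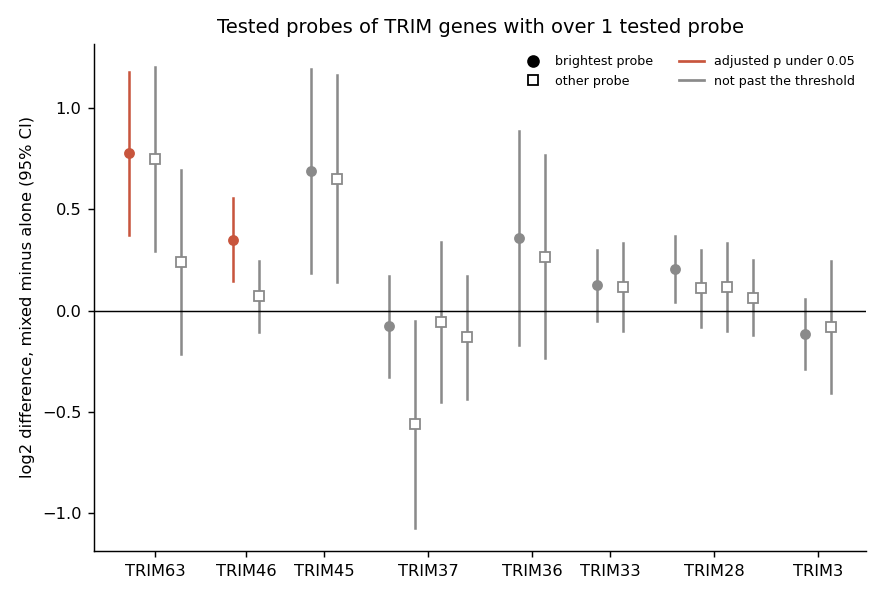
Log2 difference (mixed minus alone) with its 95% confidence interval for every tested probe of the 8 TRIM genes with over 1 tested probe; filled circles are the brightest probe of a gene and red marks an adjusted p under 0.05. All tested probes of a gene have the same sign, and TRIM63, TRIM46 and TRIM37 hold the widest spread among probes.

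Of the 39 genes, 13 had over 1 probe and 8 had over 1 tested probe. In each of these 8 the tested probes lay on the same side of 0. These counts leave out probes without a TRIM symbol. Among those, a TRIM44 probe gave -0.22, against 0.084 at the TRIM44 probe with a symbol. Over all 40 tested TRIM probes, which include the 27 read above, the median difference was 0.11. The calls among them were the same 3 higher and 1 lower (10.0%, against 11.2% of all tested probes). None of the other TRIM probes was called. The tested neighbours TRIM10 and TRIM26, 37218 bases apart on chromosome 35, differed by -0.33 and 0.30, and TRIM41 and TRIM52, 19355 bases apart on chromosome 11, by -0.026 and 0.17.

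Genes that work with TRIM25 and TRIM4 in RIG-I signalling, or with TRIM25 in ISG15 conjugation, were represented by 13 tested genes. Of these, 6 rose (46.2%, against 5.50% of all tested probes) and none fell. The groups did not overlap for 9 (69.2%, against 37.2% of all tested probes). The median difference was 0.51, against 0.12 for the TRIM genes and -0.0037 over all probes. Like every gene list here, this one was chosen with earlier results of these data known, and it was not tested as a group. DDX58, which encodes RIG-I, read 1235, 949 and 950 alone and 2168, 2377 and 2636 in mixed culture, an increase of 1.20 (SE 0.13, adjusted p = 0.0131, limma). The other RNA sensors also rose, IFIH1 (MDA5) by 1.01 (adjusted p = 0.0439) and DHX58 (LGP2) by 1.46 (adjusted p = 0.0441). ISG15, the ubiquitin-like protein, read 48069, 27059 and 31640 alone and 59371, 67305 and 72254 in mixed culture, a rise of 0.94 (adjusted p = 0.0408, and 0.0595 with the replicate number as a block). HERC5, the main ISG15 ligase of human cells, rose by 1.21 (adjusted p = 0.0182), and ZC3HAV1, an antiviral RNA-binding protein, by 0.40 (adjusted p = 0.0313). Scaled to spike-in controls, ZC3HAV1 gave 0.24 (adjusted p = 0.209), and ISG15 (0.77, adjusted p = 0.0515) and DHX58 (1.30, adjusted p = 0.0501) also lost their calls. Averaged over its probes, HERC5 gave 0.91 (adjusted p = 0.0838), and DHX58 was 0.92 after normexp background correction (adjusted p = 0.0190).

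The other 7 genes of this list did not pass. They include USP18, which removes ISG15 (1.07, adjusted p = 0.0755), and UBE2L6, the E2 enzyme of ISG15 (0.084, adjusted p = 0.505). MAVS, the adaptor downstream of RIG-I, gave 0.19 (adjusted p = 0.386), and IRF3 gave -0.012 (adjusted p = 0.963). Alone replicate 1 was the highest alone array for DDX58, IFIH1, DHX58, ISG15, HERC5 and USP18, as it was for TRIM21. TRIM25 differed in sign from every called gene of the list.

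**Figure D5:**
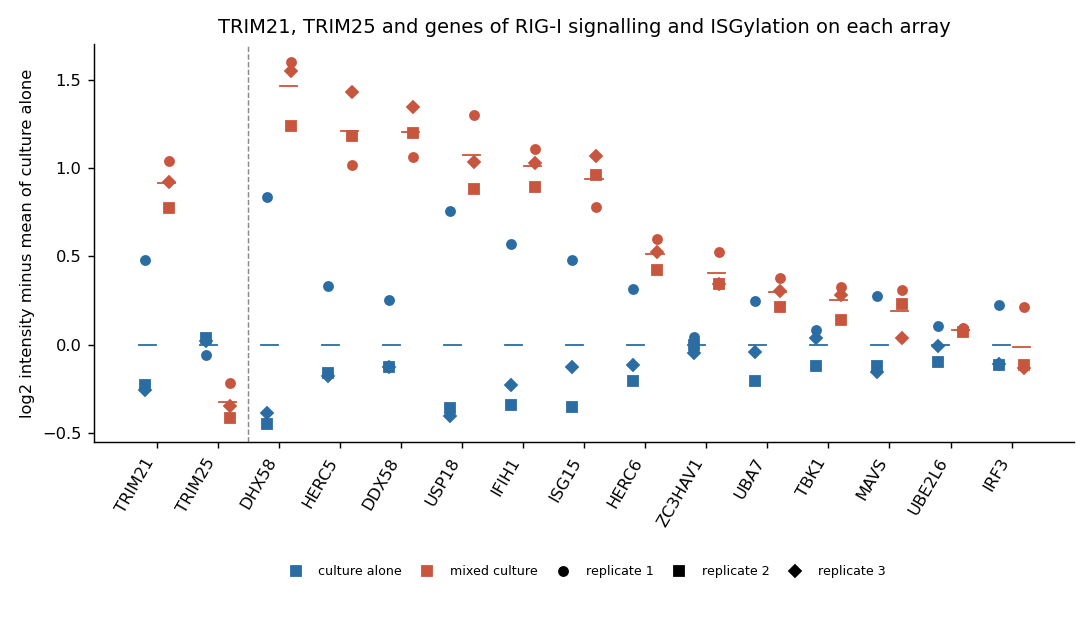
Log2 intensity on each array minus the mean of culture alone for TRIM21 and TRIM25 (left of the dashed line) and 13 genes of RIG-I signalling and ISG15 conjugation, ordered by their difference. The differences run from 1.46 for DHX58 to -0.012 for IRF3, and alone replicate 1 lies toward the mixed arrays for most of the genes that rose.

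Of 4 tested transcription factors of interferon signalling, CIITA, the MHC class II transactivator, was called (25%, against 11.2% of all tested probes). It read 72.7, 48.4 and 59.5 alone and 256, 377 and 411 in mixed culture, a rise of 2.52 (SE 0.22, adjusted p = 0.0103, limma). A second CIITA probe, also called, gave 1.30 (adjusted p = 0.0103), and the remaining one was dim and not tested. Averaged over its probes CIITA gave 1.48 (adjusted p = 0.0160), and the brightest probe gave 1.71 after normexp background correction (adjusted p = 0.00303). STAT2, IRF9 and IRF1 differed by 0.22, -0.20 and 0.10 at their brightest probes and did not pass. The IRF9 probes disagreed in sign, the dimmer one giving 0.35 without overlap between the groups (adjusted p = 0.0611). Among 9 tested E2 enzymes that can serve TRIM ligases, 2 fell (22.2%, against 5.72% of all tested probes) and none rose. UBE2E2 went from 166, 211 and 217 to 137, 112 and 114 (-0.71, adjusted p = 0.0281), and UBE2V1, an E2 variant of lysine-63 chains, from 2297, 2271 and 2051 to 1757, 1644 and 1766 (-0.36, adjusted p = 0.0383). With the replicate number as a block their adjusted p was 0.0553 and 0.0589, and scaled to spike-in controls 0.0548 (-0.87) and 0.0587 (-0.52). After normexp background correction UBE2E2 gave -0.45 (adjusted p = 0.0242). The median of the 9 was -0.18.

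Relatives with TRIM architecture under other names were all above 0 without a call. Of all 26534 tested probes, 13104 were above 0 and 11.2% were called. PML, the organiser of nuclear bodies, differed by 0.37 (adjusted p = 0.0829), MID2 by 0.25 (adjusted p = 0.0846), BSPRY by 0.65 (adjusted p = 0.0768) and FSD1 by 0.20 (adjusted p = 0.183, limma), each without overlap. These were 4 of 6 (66.7%), against 37.2% of all tested probes. The second PML probe gave 0.14 with overlapping groups, and the median of the 6 was 0.30. None of the 7 tested partners of TRIM28, among them SETDB1 (0.036) and CBX1 (0.38), passed the threshold, where 11.2% of all tested probes did. All 9 called genes of these partner lists were past it without alone replicate 1, and 4 were without mixed replicate 1. None was when 1 of the other 4 arrays was left out (adjusted p = 0.0511 to 0.145).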

How the data were processed

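Sorted RasV12 cells from culture alone (3 arrays) and mixed culture (3 arrays) were measured on 1-colour Agilent canine arrays, and samples were grouped by their labels. The authors deposited the scanner output of each array (Feature Extraction 10.10.1.1, canFam3 annotation), which gives a background-corrected, detrended intensity per spot. The authors also deposited a table of log2 values for 26529 probes. Each of its columns equals the log2 processed intensity minus the array's 75th percentile, within 0.08 for every probe and within 0.01 for at least 99.99%.

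Here control spots and outlier flags were dropped, spots of a probe averaged, and log2 values taken minus each array's 75th percentile (592 to 700). A probe was tested if every array of 1 group had it well above background (26534 probes), with limma 3.58.1 in R 4.3.3 (lmFit, eBayes), two-sided, with Benjamini-Hochberg adjustment over all tested probes. Tables and plots used Python 3.11.15, pandas 2.3.3, numpy 2.4.6 and matplotlib 3.10.9. On data simulated for this comparison (26528 probes, 200 changed), 74% of 2-fold and 95% of 4-fold changes were recovered, with 16 false calls and 0 with no change simulated. The simulated noise was independent between arrays, so it held no slide effect and no pairing by replicate. All called TRIM differences were below 2-fold, so these figures do not give the recovery or error of those calls.

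The members and gene lists were chosen with earlier results of these data known. The text names every called TRIM gene, every tested interferon-linked one, the 5 largest uncalled differences among genes well above background on all 6 arrays, and called partner genes. Other genes are given to account for the members or were chosen after their values were seen. After removing group means, arrays with the same replicate number correlated at 0.349, 0.162 and 0.296 over 26528 probes. All exceed 0.1, but alone replicate 2 correlated more with mixed replicate 3, at 0.238, than with mixed replicate 2. The correlations therefore do not settle a pairing by number, and the reported calls come from the fit without a replicate block. The number is also the array's position on its slide. The alternatives tried were normexp, quantile normalization, spike-in scaling, other filters, the deposited table, the methods' t-test, a replicate block, probe means and leaving out each array. No promoter, protein or genome sequence was used here.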

Additional observations from a re-analysis of the deposited data

Results flagged for a closer look

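A TRIM9 probe that the array names only by a transcript accession, and that entered no comparison, read 12.9, 12.9 and 18.6 in mixed replicates 1 to 3 and 3.58, 2.86 and 2.36 in the alone arrays. It was well above background on 1 mixed array and on no alone array, and it was singled out as a signal outside the main measurement above its level in culture alone. The second TRIM9 probe read 3.31 to 3.75 in mixed culture and 4.50 to 6.03 alone, not well above background on any array. The difference was not tested.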

How the results depend on the processing

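As reported, 3 TRIM genes were higher and 1 was lower in mixed culture. Quantile normalization, a filter for all 6 arrays and the deposited log2 table kept these 4 calls. Normexp background correction left 3 higher and 0 lower, scaling to spike-in controls 2 and 0, and the mean over the probes of a gene 1 and 0. With the replicate number as a block, 2 were higher and 0 lower, since TRIM46 (adjusted p = 0.0563) and TRIM25 (adjusted p = 0.0768) lost their call, as did the partner genes ISG15, UBE2E2 and UBE2V1, and the block changed no other call among the 10 TRIM genes named by rule and the 9 called partner genes, the genes for which it was examined. With no filter on dim probes 0 were higher and 0 lower in limma, with 8 TRIM genes at an unadjusted p under 0.05, while 12 of all 43603 probes were called against 2978 of 26534. The methods' t-test after Benjamini-Hochberg adjustment likewise gave 0 and 0, with 7 TRIM genes at an unadjusted p under 0.05 and 828 of all probes called. Of the 9 called partner genes, only CIITA (adjusted p = 0.0422) and DDX58 (adjusted p = 0.0475) kept their call under this t-test. Leaving out 1 array gave 0 to 7 TRIM genes higher and 0 to 1 lower, with 3 to 7470 of all probes called. The median over the TRIM genes moved from 0.12 to -0.040 under spike-in scaling and was 0.10 to 0.12 when 1 array was left out. None of the 4 called genes changed sign in the 15 alternatives. TRIM14, at 0.0047, changed sign in 4: -0.010 with quantile normalization, -0.16 with spike-in scaling, -0.067 without alone replicate 2 and -0.040 without mixed replicate 1, and its values with 1 array left out ran from -0.067 to 0.042. For these changes the cause was not tested. A slide block was not run because slide and group coincide. Signal over background limits the 10 members at background on every array, for which no difference could be tested.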

Other observations

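The array annotation describes 12 more probes as tripartite motif genes without a TRIM symbol. They stand for 9 genes, 7 of which are not among the 39 members. Of these probes 6 were tested and 0 passed the threshold in limma, where 11.2% of all tested probes did. TRIM32, an NHL ligase linked to limb-girdle muscular dystrophy, read 236, 227 and 209 alone and 220, 159 and 178 in mixed culture (-0.29, 95% CI -0.60 to 0.025, adjusted p = 0.189). TRIM47 read 23.2 to 36.8 alone and 21.2 to 26.0 in mixed culture (-0.25, adjusted p = 0.388). A TRIM44 probe of this kind read 7732, 10105 and 10049 alone and 7533, 8252 and 8053 in mixed culture (-0.22, adjusted p = 0.271). The TRIM44 probe with a symbol was dimmer and gave 0.084, and both intervals span 0. A TRIM2 probe of this kind was likewise brighter than the TRIM2 probe with a symbol, and gave 0.036 (adjusted p = 0.868).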
